A study of Mus musculus with 360 samples.

Results

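Cells of the coronal suture (COR), the fibrous joint between the frontal and parietal bones, were compared with cells of the tibial growth plate (GP), the cartilage layer from which the shin bone lengthens. The members are the cells on the 4 plates of these tissues that held 10000 reads or more over 500 or more genes. They number 152 of the 325 cells of the series that passed this filter, namely 74 of 80 COR cells (16 on plate 1 and 58 on plate 2) and 78 of 85 GP cells (20 and 58). All came from CD-1 wild type mice at postnatal day 3. Both tissues went through the same gate, which kept CD51+ CD200+ cells and removed blood cells (CD45, Ter119), endothelial cells (Tie2) and those with 6C3, CD105, Thy1.1 or Thy1.2, and the cells were sorted again singly into wells. The suture piece held the bone fronts, the mesenchyme between them, the dura mater below and the periosteum. Mice were pooled and none is named for any cell. Each tissue is therefore 1 sample, no p-value is given, and the spread between the 2 plates is the only spread available. Every tissue had plates of its own, so plate and tissue cannot be told apart. The study set the growth plate beside the sutures as the long bone reference for the same surface phenotype.

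The flat bones of the skull vault form directly from mesenchyme, and a suture keeps a strip of undifferentiated mesenchyme between the advancing bone fronts. Long bones form through cartilage, which grows, enlarges, mineralizes and is replaced by bone at the growth plate, and the cells around it also give rise to periosteum, ligament and tendon attachments. Limb cells carry a positional code of Hox genes with Pitx1 and Tbx4 in the hindlimb, and skull cells one of Alx, Msx and Zic genes with Six2.

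Reads per gene were given per cell. Without Rn45s, the ribosomal RNA precursor gene that took 26.4% of COR and 30.5% of GP reads, the passing cells held 32037308 reads in COR and 28471545 in GP. A COR cell had a median of 448803 such reads and 3364 genes, a GP cell 369308 reads and 2966 genes. Levels are in CPM, the reads of a gene summed over the cells of a plate or tissue and scaled to its total without Rn45s, and ratios are differences of log2(CPM + 1), COR minus GP, which understate the change of weakly read genes. The median spread (SD) of a gene's 4 plate ratios was 0.69 log2 units. Brackets after a ratio hold the lowest and highest of the 4 ratios of a COR plate to a GP plate. Of 24014 genes listed, 9431 reached 10 CPM in a tissue, and their median ratio was 0.073. All 4 plate ratios lay above 0 for 1797 genes (19.1%) and below 0 for 1691 (17.9%). A gene was called where the tissue ratio was also at least 2-fold in that direction, which held for 597 genes higher in COR (6.33%) and 669 higher in GP (7.09%). Of these, 420 (4.45% of the 9431) and 350 (3.71%) were read in at least 15% of the cells of the higher tissue with no cell giving over 50% of the reads. The called shares of 6.33% and 7.09% are the background for each count of called list members below. Across the 9431 genes the 2 COR plates correlated at 0.79 and the 2 GP plates at 0.74 (Pearson's r of log2(CPM + 1)), and a COR with a GP plate at 0.63 to 0.74. Genes are not independent, and the larger plates share greater depth.

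Genes for both proteins that the sort gate kept were read in both tissues. Itgav, which encodes CD51, was at 122 and 86.8 CPM on the COR plates and 71 and 77.3 CPM on the GP plates. For Cd200 the values were 239 and 129 CPM and 219 and 103 CPM, and neither gene was called. Cd200 was read in 55.4% of COR and 48.7% of GP cells. Of the genes for excluded proteins, Ptprc (CD45) was read in 1 cell of each tissue, Tek (Tie2) in no cell and Thy1 in 1 COR cell. Enpep (6C3) was read in 5 COR and 3 GP cells. Eng, which encodes CD105, was read in 4 COR cells on both plates at 13.3 CPM and in no GP cell, and it passed the call with 57% of its reads from 1 cell.

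**Figure D1:**
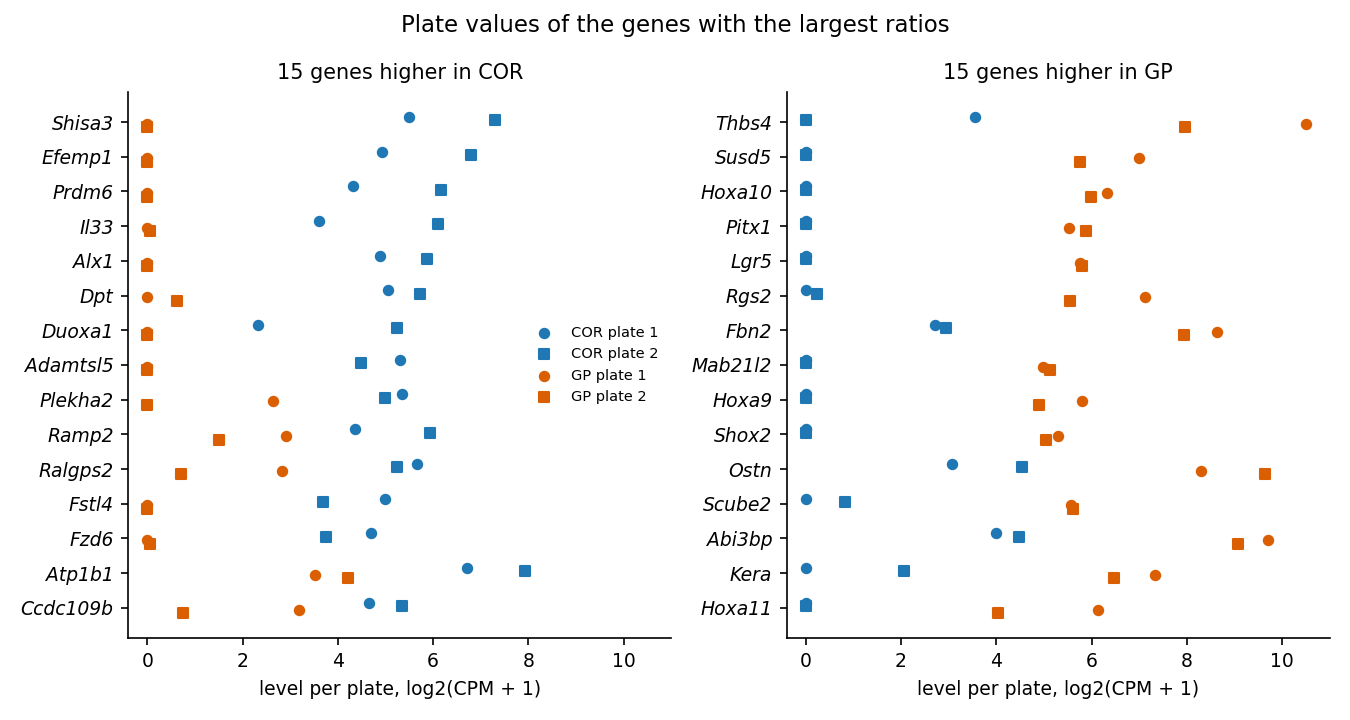
Plate levels, as log2(CPM + 1), of the 15 broadly read genes with the largest ratios in each direction. Circles are plate 1 and squares plate 2, blue for COR and orange for GP. For each gene both COR points lie on the same side of both GP points, as the call requires. The widest gap between plates of 1 tissue is that of Thbs4 in COR, at 3.56 log2 units.

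Of the 2 tissues, GP alone held reads of the hindlimb position genes, in 59 of its 78 cells. Pitx1, a homeobox factor of the hindlimb bud (chromosome 13, 55926415 to 55937553 of mouse build NCBIM37, minus strand), was listed at 0 on both COR plates and at 45.1 and 57.9 CPM on the GP plates. The GP level was 55.7 CPM (95% interval 53 to 58.5), at least 595-fold higher than 3 reads over all COR cells would give. It was read in 39 of 78 GP cells (50%, 95% interval 38.5% to 61.5%) and in 0 of 74 COR cells, which allows a share of up to 4.05% by the floor of 3 counts and 4.86% by the exact interval. Thus the limb gene was common among GP cells and undetected in COR cells at a higher depth.

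Hoxa10, a distal limb Hox gene (chromosome 6, 52181196 to 52190853), reached 79.3 and 62.8 CPM on the GP plates in 27 cells and had no COR read. Tbx4, the hindlimb T-box factor (chromosome 11, 85699924 to 85729599), reached 29.6 and 21.1 CPM in 15 GP cells, again with no COR read. Hoxa9, Hoxa11, Hoxa11os and Hoxc10 followed the same pattern, at tissue levels from 19.4 CPM for Hoxc10 to 33.3 CPM for Hoxa9. Hoxa11 and Hoxa11os overlap on opposite strands, and reads were counted without a stated strand, so their values are not independent. All 7 of the 18 hindlimb genes that reached 10 CPM were called higher in GP, with a median ratio of -4.69, or -8.05 with each set at the bound that 3 COR reads give. With no COR read, these genes reached 10 CPM through GP alone, so the count is a description. In single cells, 59 of 78 GP cells held a read of at least 1 list member, 38 held reads of at least 3, and no COR cell held any. Shox2, a limb homeobox gene outside the list, had 38.1 and 32.1 CPM in 29 GP cells. Mab21l2 had 30.8 and 34 CPM in 19 GP cells, and COR gave no read of either.

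The cranial position genes were less exclusive. Alx1, a homeobox factor of skull and face mesenchyme, was at 28.4 and 57.8 CPM on the COR plates and at 0 on both GP plates. It was read in 17 of 74 COR cells (23%, 95% interval 14% to 34.2%), and its COR level was at least 521-fold that of 3 GP reads. Six2 (chromosome 17, 86083608 to 86087594), a homeobox factor used as a marker of suture mesenchyme, was at 15.4 and 29.8 CPM in COR and 0 and 3.06 CPM in GP, a ratio of 3.06 (2.02 to 4.95). All GP reads of Six2 came from 1 cell, whereas 25 COR cells held it. Of the other cranial factors, Alx4, Zic1 and Foxc1 stayed below the call. Alx4 was at 4.01 and 12 CPM in COR and 0.405 and 4.97 CPM in GP, with plate ratios on both sides of 0 although 22 COR and 5 GP cells held a read. Zic1 was at 2.78 and 6.11 CPM in COR with no GP read and did not reach 10 CPM. Foxc1, a forkhead factor of skull mesenchyme and meninges, was at 23.7 CPM in COR and 20.8 CPM in GP. Of 18 cranial genes 7 reached 10 CPM, 3 were called higher in COR and 0 in GP, and the median ratio was 2.01. At least 1 of them was read in 55 of 74 COR cells and in 32 of 78 GP cells. Reads of at least 3 occurred in 23 COR cells and in no GP cell, and 27 GP cells held both a cranial and a hindlimb list member. The cranial list summed to 204 CPM in COR and 43.3 CPM in GP, and which members these 27 cells held was not counted.

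**Figure D2:**
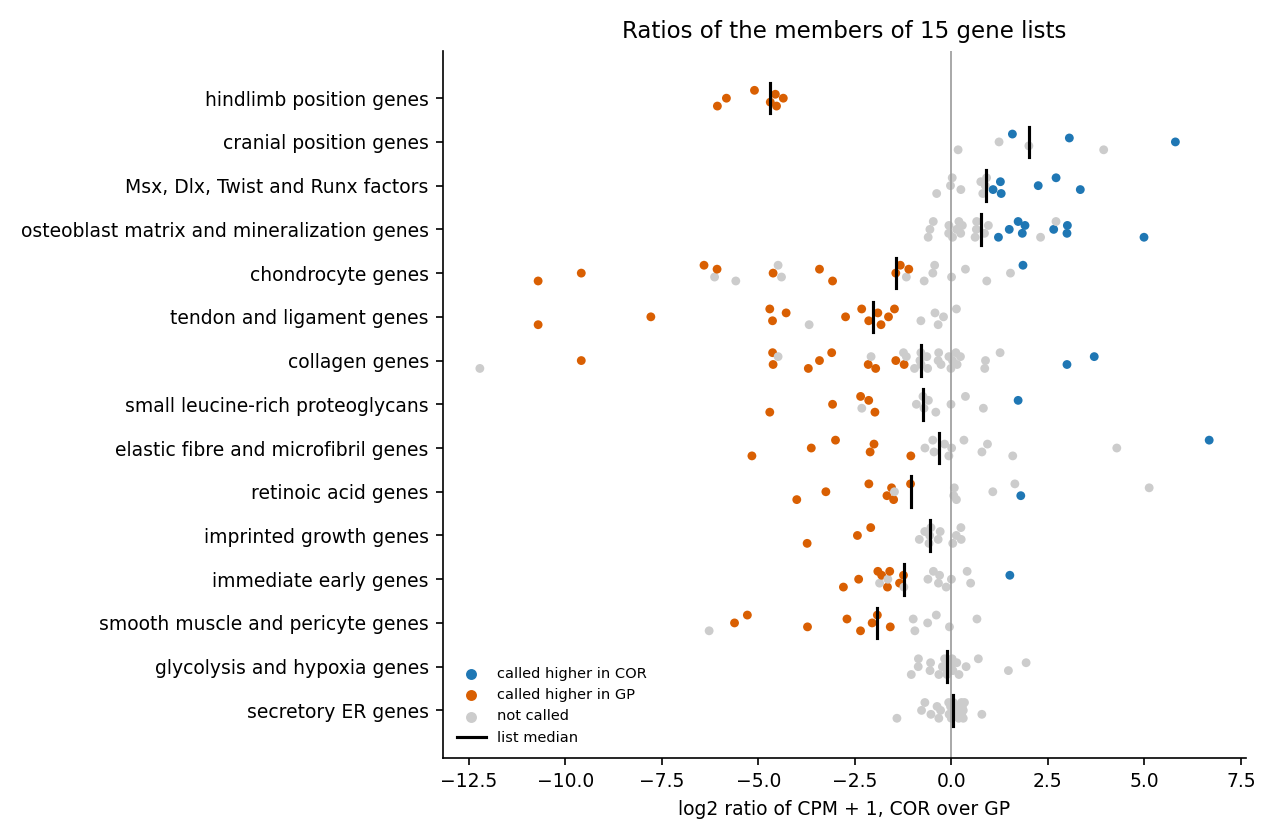
Log2 ratios of COR over GP for the members of 15 gene lists with at least 10 CPM in a tissue. Each point is a gene, blue where called higher in COR, orange where called higher in GP and grey otherwise, and the black bar is the list median. The hindlimb points reach from -6.06 to -4.35, the secretory and glycolysis points carry no call, and the osteoblast calls are all on the COR side.

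Some of the factors known from skull bone formation were higher in COR, and none of them in GP. Of the 20 Msx, Dlx, Twist, Runx and related factors, 14 reached 10 CPM. Of these, 6 were called higher in COR and 0 in GP, beside backgrounds of 6.33% and 7.09%. All plate ratios lay above 0 for 11 and below 0 for 0 of the 14, beside backgrounds of 19.1% and 17.9%. Their median ratio was 0.90 against 0.073 over all genes. Msx1, a homeobox factor that keeps cranial mesenchyme proliferating (chromosome 5, 38211724 to 38215822), was at 4.32 and 20.8 CPM on the COR plates and 0.81 and 1.02 CPM on the GP plates. It was read in 32 of 74 COR cells (43.2%, 95% interval 31.8% to 55.3%) and in 3 of 78 GP cells (3.85%, 95% interval 0.8% to 10.8%). Its relative Msx2 (chromosome 13, 53562250 to 53568443), whose gain of function fuses sutures, was at 36.4 and 37.7 CPM and 0 and 5.91 CPM, a ratio of 2.71 (2.44 to 5.27). For each of the pair both COR plates lay above both GP plates, as the call requires. However, Msx1 was under 10 CPM on COR plate 1 and had no call without COR plate 2.

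Sp7 (osterix, chromosome 15, 102187040 to 102197285), the factor that commits cells to the osteoblast, was at 574 and 248 CPM in COR and 11.7 and 68 CPM in GP, a ratio of 2.25 (1.85 to 5.5). The share of cells with a read was 44 of 74 COR cells (59.5%, 95% interval 47.4% to 70.7%) against 18 of 78 GP cells (23.1%, 95% interval 14.3% to 34%), and after thinning of each cell to 100000 reads it was 57.7% against 23.9%. Runx2, which acts before Sp7, was at 125 and 84.9 CPM in COR and 45.3 and 51.1 CPM in GP. All 4 ratios of Runx2 lay above 0 (0.72 to 1.44), but the tissue ratio of 0.82 was under 2-fold. Runx3 was called with a ratio of 1.29 (0.54 to 2.53) from 16 COR cells, Dlx3 with 1.27 and Id1, a BMP target, with 1.08 (0.17 to 1.51). Twist1, the gene mutated in a coronal synostosis syndrome, stayed below the call at 18.9 CPM in COR and 9.83 CPM in GP, all 4 ratios above 0. Id2, Id3 and Runx1 had ratios of 0.024, -0.38 and -0.022.

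The promoters of Msx2, called higher in COR, and Tnmd, called higher in GP, are printed below from RefSeq (build GRCm38.p6) because each holds the homeodomain core TAATTA. They run from 250 bases before to 50 after the start, 5′ to 3′ on the strand of the gene, with the core in capitals.
Msx2, chr13:53472731-53473030, minus strand: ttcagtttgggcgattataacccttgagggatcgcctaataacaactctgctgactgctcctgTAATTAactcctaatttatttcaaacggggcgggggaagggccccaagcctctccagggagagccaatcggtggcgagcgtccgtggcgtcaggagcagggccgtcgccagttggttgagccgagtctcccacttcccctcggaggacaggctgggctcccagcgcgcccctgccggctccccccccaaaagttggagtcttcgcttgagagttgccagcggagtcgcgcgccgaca
Tnmd, chrX:133850758-133851057, plus strand: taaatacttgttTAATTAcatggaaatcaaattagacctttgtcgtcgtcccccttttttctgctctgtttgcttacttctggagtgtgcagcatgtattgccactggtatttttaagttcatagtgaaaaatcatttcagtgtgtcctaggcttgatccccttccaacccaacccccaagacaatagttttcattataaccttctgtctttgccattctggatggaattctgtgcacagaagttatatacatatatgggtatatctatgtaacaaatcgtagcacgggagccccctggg
Neither window held the other searched motifs, CATCTG (an E-box, CAGATG on the other strand) and TGTGGT (a Runx motif, ACCACA on the other strand). The window of Col13a1, called higher in COR, was searched as well, held none of the motifs and is not printed. TAATTA reads the same on both strands and occurred in 5.29% of 32851 promoter windows. It was in 2.17% of the 414 windows of the broadly read genes higher in COR and in 2.37% of the 337 windows of those higher in GP. CATCTG was in 9.42% and 10.7% of these windows against 17.2% of all, and TGTGGT in 10.9% and 12.2% against 16.8%. These are letters found and not binding sites.

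Ankrd6, Kcnn4 and Col13a1 mark the suture side of the contrast, and Comp and Pitx1 the other. All 5 were taken as markers from earlier results of the same data, so that their calls are no independent support. Ankrd6 (Diversin, chromosome 4, 32891010 to 33037816), which holds back the beta-catenin branch of Wnt signalling in favour of the planar polarity branch, was at 58.1 and 54.7 CPM on the COR plates and 0 and 5.23 CPM on the GP plates. The ratio was 3.4 (3.16 to 5.88), with reads in 26 of 74 COR cells (35.1%, 95% interval 24.4% to 47.1%) and in 3 of 78 GP cells (3.85%, 95% interval 0.8% to 10.8%). Kcnn4 (chromosome 7, 25155282 to 25170228), a calcium-activated potassium channel, was at 58.4 and 50.9 CPM and 0 and 6.71 CPM, a ratio of 3.01 (2.75 to 5.89). Of its GP reads 99.4% came from 1 of the 2 GP cells that held it, whereas the largest share of 1 among 20 COR cells was 20%. Col13a1 (chromosome 10, 61300984 to 61441856), a transmembrane collagen of osteoblasts and neuromuscular junctions, was at 162 and 53.1 CPM and 6.68 and 7.27 CPM, a ratio of 3 (2.71 to 4.41) from 27 COR and 6 GP cells. With the cell richest in each gene left out of every plate, the ratios of the 3 genes were 4.36, 5.29 and 4. Only 3, 2 and 6 GP cells held these genes, so this step took out most of the GP reads by construction. It left 1.19, 0.035 and 2.18 CPM in GP, and the rise in the ratios is no added support.

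Bone matrix genes split into a shared and a COR-high group. Of 27 osteoblast matrix and mineralization genes 26 reached 10 CPM, 9 were called higher in COR and 0 in GP, with a median ratio of 0.76. The most abundant matrix genes differed little. Col1a1 was at 63338 CPM in COR and 66141 CPM in GP, Sparc at 35970 and 31388 CPM. Ibsp, a mineral-binding sialoprotein, was read in 19 of 74 COR cells (25.7%, 95% interval 16.2% to 37.2%) and in 18 of 78 GP cells (23.1%, 95% interval 14.3% to 34%). Its plate values of 9086 and 1068 CPM in COR and 392 and 1984 CPM in GP overlapped.

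Alpl, the phosphatase that frees phosphate for mineral, was higher in COR at 1796 and 994 CPM against 317 and 491 CPM, a ratio of 1.22 (1.02 to 2.5) with 60 of 74 and 40 of 78 cells. Panx3, a channel of osteoblasts and enlarging chondrocytes, was at 784 and 241 CPM against 0 and 87.8 CPM in 37 COR and 12 GP cells. Ifitm5, an osteoblast membrane protein, was at 664 and 71.8 CPM against 15 and 40.5 CPM, and the COR plates of this gene differed from each other by more than the COR plate 2 and GP plate 2 values did. Ank, which exports pyrophosphate, was called at 1.91 (0.46 to 2.04), and Smpd3, a sphingomyelinase needed for mineralization, at 1.5. Omd and Dmp1 had ratios of 1.73 and 2.65, with 46.4% and 48.8% of the COR reads from 1 cell. Mepe was called on the reads of 2 COR cells, 1 of which gave 99.1%. Bglap (osteocalcin) was at 37.4 and 1389 CPM in COR and 4.05 and 229 CPM in GP and was not called. Reads of Bglap and its near copy Bglap2 are uncertain, since the counting may have split or lost them.

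The 15 broadly read genes with the largest ratios on the COR side had varied known roles, and Alx1, described above, was among them. Shisa3 (chromosome 5, 67999122 to 68014791), which holds back Wnt and FGF receptors, was at 43.9 and 156 CPM in COR in 14 cells and had no GP read, at least 1374-fold the level of 3 GP reads. Efemp1 (chromosome 11, 28753204 to 28826743), a fibulin of loose connective tissue, was at 29.3 and 109.6 CPM in 13 COR cells, likewise with no GP read. Prdm6, a repressor known from smooth muscle, was at 18.8 and 70.6 CPM in 17 COR cells and Adamtsl5, a microfibril-associated protein, at 38.6 and 21.5 CPM in 17, and neither had a GP read. In these 4 genes the 78 GP cells were empty, which allows a share of up to 3.85% by the floor of 3 counts and 4.62% by the exact interval.

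Il33, an alarmin cytokine, was at 11.1 and 67.6 CPM in 12 COR cells and had 1 GP read, a linear fold of 1762 in CPM with a counting interval of 316 to 69642. Dpt (dermatopontin), a small matrix protein of fibroblasts, was at 32.1 and 51.7 CPM in COR and 0 and 0.552 CPM in GP, the latter from 1 cell. Duoxa1, a maturation factor of dual oxidase, and Fstl4 had no GP read and were held by 12 and 13 COR cells. Fzd6, a Wnt receptor of the polarity branch, was at 25 and 12.5 CPM in 13 COR cells against 1 GP read. Plekha2, Ramp2, Ralgps2, Atp1b1 and Ccdc109b complete the 15 and had ratios from 3.73 to 4.09. Most of the COR reads of Shisa3, Efemp1, Prdm6, Il33 and Duoxa1 lay on plate 2, and without the richest cell of each plate Shisa3, Il33, Duoxa1 and Fzd6 no longer met the call. Of Shisa3, Il33 and Duoxa1 this removed the only cell with a read on COR plate 1. More widely read was Timp1, an inhibitor of matrix proteases, at 522 and 438 CPM against 93.9 and 78.7 CPM, a ratio of 2.44 (2.21 to 2.71) with 61 COR and 41 GP cells.

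**Figure D3:**
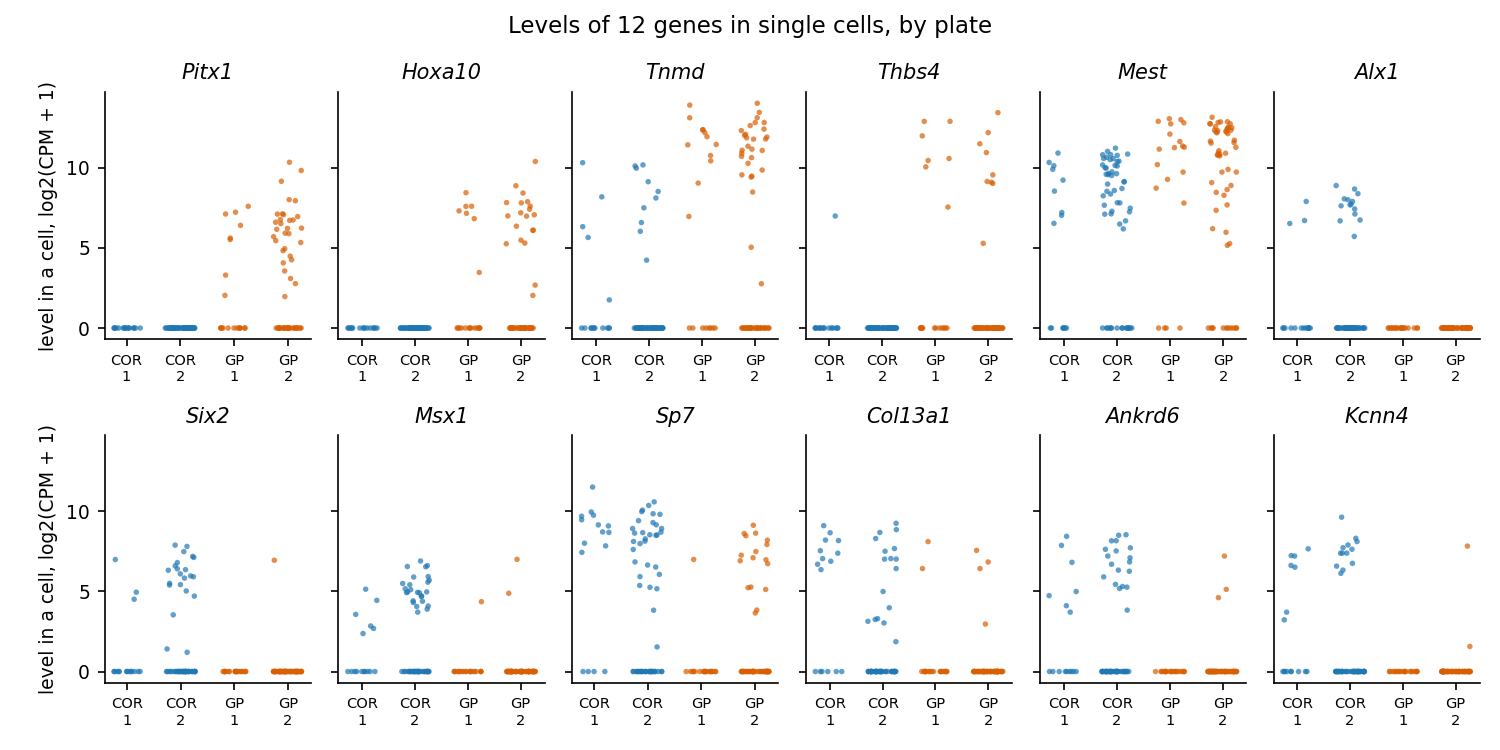
Levels of 12 genes in each cell, as log2(CPM + 1), by plate (16 and 58 COR cells in blue, 20 and 58 GP cells in orange, spread sideways at random). Pitx1 and Hoxa10 points above 0 occur in GP alone and Alx1 points in COR alone, while Tnmd, Mest and Sp7 are read in both tissues at different shares or levels.

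Tendon and ligament genes were higher in GP over most of their list. All 18 listed genes reached 10 CPM, 12 were called higher in GP and 0 in COR, beside backgrounds of 7.09% and 6.33%, and the median ratio was -2.02 (-3.69 without COR plate 2). Tnmd (tenomodulin, chromosome X, 130385519 to 130400116), a membrane protein of mature tenocytes and ligament cells, was at 76.3 and 84.1 CPM on the COR plates and 2927 and 1913 CPM on the GP plates, a ratio of -4.63 (-5.24 to -4.49). It was read in 15 of 74 COR cells (20.3%, 95% interval 11.8% to 31.2%) and in 41 of 78 GP cells (52.6%, 95% interval 40.9% to 64%). Thbs4 (chromosome 13, 93521545 to 93564773), a thrombospondin of tendon matrix, was at 10.8 and 0 CPM and 1459 and 249.9 CPM, a ratio of -7.78 (-10.51 to -4.41), with 16 GP cells and 1 COR cell. For both genes each GP plate stood above each COR plate, as the call requires.

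Scx (scleraxis), the early tendon factor, was at 25.3 and 9.51 CPM in COR and 36.6 and 64.3 CPM in GP, and its ratios of -2.64 to -0.52 came with 13 COR and 28 GP cells. Kera, a keratan sulfate proteoglycan, was at 0 and 3.19 CPM and 159.9 and 87.2 CPM. Fmod, a proteoglycan that shapes collagen fibrils, was read in most cells of both tissues, 62 of 74 and 58 of 78, at 1197 and 1279 CPM and 7357 and 5233 CPM, so that its difference lay in level. Mkx and Fibin were called at -1.47 and -1.82. Col12a1, Tnc and Thbs2, matrix genes of tendon and periosteum, had ratios of -0.34, -0.20 and 0.13 and were not called. Ostn (osteocrin), a secreted peptide of periosteum and muscle, was at 7.41 and 22.1 CPM in COR and 312 and 795 CPM in GP, read in 2 and 26 cells.

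Several cartilage genes were higher in GP, where single cells gave large shares of the reads. Comp (cartilage oligomeric matrix protein, chromosome 8, 72897447 to 72905964), found in cartilage and tendon, had no COR read and was at 582 and 1893 CPM on the GP plates in 29 of 78 GP cells (37.2%, 95% interval 26.5% to 48.9%). A single GP cell gave 86.1% of its reads. With the richest cell of each plate left out, Comp was at 449 and 158 CPM on the GP plates. Col2a1, the main collagen of cartilage, was at 0.309 and 2.26 CPM in COR and 53.4 and 2831 CPM in GP, read in 3 and 21 cells, and 1 GP cell gave 62.8% of its reads. Of 26 chondrocyte genes 23 reached 10 CPM, 10 were called higher in GP and 1, Sox6, in COR, with a median ratio of -1.44. A single GP cell gave 50.3% of the GP reads of the list, and the list median was -4.21 without COR plate 2 and -0.66 without GP plate 2.

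The other called members had smaller ratios than Comp and Col2a1. Chad (chondroadherin) was at 12.7 and 75.9 CPM in COR and 667 and 578 CPM in GP in 8 and 32 cells, a ratio of -3.08 (-5.61 to -2.91). Acan, the aggregating proteoglycan, had a ratio of -1.32 (-3.06 to -0.74), Col11a1 of -1.44 (-1.53 to -0.81) and Sox9, the chondrocyte master factor, of -1.1 (-1.38 to -0.39). Susd5 was at 127 and 53.2 CPM in 14 GP cells with no COR read. Sox6, a partner of Sox9, was at 19.5 and 39.1 CPM in COR and 13.2 and 8.75 CPM in GP. Sox9 and Sox6 had no call without COR plate 2 or without the richest cell of each plate, and Acan none without GP plate 2. Col10a1, the collagen of enlarging chondrocytes, was at 5917 CPM on GP plate 2, in 13 cells, and at 0 on GP plate 1, against 0 and 0.0347 CPM in COR. It was not called, because its plate ratios did not share a sign.

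Other matrix lists also had more calls in GP than in COR, beside backgrounds of 7.09% and 6.33%. Of 35 collagen genes at 10 CPM, 10 were called higher in GP and 2, Col13a1 and Col26a1, in COR, with a median ratio of -0.79. Col8a1, a short-chain collagen, was at 17.9 and 48.6 CPM in COR and 771 and 571 CPM in GP. Among 18 elastic fibre and microfibril genes 6 were called higher in GP and 1, Efemp1, in COR, with a median of -0.31. Fbn2, the fibrillin of developing tissue, was at 5.56 and 6.7 CPM in COR and 393 and 245 CPM in GP in 4 and 41 cells. Fbln2 (fibulin-2) was at 54.7 and 51 CPM and 866 and 600.1 CPM. For Fbn2 and Fbln2 each GP plate stood above each COR plate, as the call requires. Of the 18 list members, 9 had all plate ratios below 0 and 2 had all above, beside backgrounds of 17.9% and 19.1%.

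Of 15 small leucine-rich proteoglycans at 10 CPM, 5 were called higher in GP and 1, Omd, in COR, with a median of -0.73. Ogn (mimecan) was at 434 and 709 CPM in COR and 5278 and 3099 CPM in GP, a ratio of -2.35 (-3.6 to -2.13). Abi3bp, a matrix-bound regulator of mesenchymal growth, was at 14.8 and 21.2 CPM and 829 and 538 CPM in 12 and 45 cells. By contrast, of 26 collagen folding and crosslinking enzymes 2 were called higher in GP, near the background of 7.09%. For COR the count was 0, and the median was -0.09. Of 26 metalloproteinase and inhibitor genes 3 were called higher in COR (Timp1, Adamts5 and Adamts12) and 2 in GP (Adamts20 and Mmp17).

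Signalling genes were called in both directions, beside backgrounds of 6.33% in COR and 7.09% in GP. Among 24 Wnt receptors and response genes, 4 were called higher in COR and 3 in GP with a median of 0.21. Tcf7, a nuclear effector of Wnt signals, was at 205 and 43.2 CPM in COR and 7.69 and 6.2 CPM in GP, a ratio of 3.02 (2.35 to 4.84). Nkd2, a feedback inhibitor, had the opposite sign at -2.18 (-5.25 to -2.02). Lgr5, the R-spondin receptor known as a stem cell marker of epithelia, was at 53.2 and 54.5 CPM in 18 GP cells and had no COR read. Of 5 Wnt ligands 2 were called higher in GP, Wnt5a among them at -2.03 (-2.74 to -1.16), and of 10 secreted Wnt inhibitors 3, with Sostdc1 at -2.53 (-7.62 to -1.4). Neither list had a member called higher in COR.

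BMP ligands differed by gene. Bmp3, a bone matrix ligand that opposes BMP signals, was at 132 and 43.1 CPM in COR and 0.607 and 7.39 CPM in GP, and its relative Gdf10 had a ratio of 1.87 (0.92 to 2.34). Bmp5, by contrast, was at 0 and 7.08 CPM in COR and 123 and 78.9 CPM in GP, read in 3 and 26 cells. The secreted antagonists Fst and Chrd were called higher in GP at -4.46 (-4.93 to -1.01) and -3.13 (-6.61 to -2.4). Of 15 BMP receptors, antagonists and targets 4 were called in this direction and 1, Id1, in the other. Of 12 hedgehog and PTHrP genes 2 were called higher in COR and 0 in GP, beside backgrounds of 6.33% and 7.09%. Gli1, the target that reads out the pathway, was at 8.03 and 23.7 CPM against 0 and 5.65 CPM in 14 COR cells and 1 GP cell, and Sufu was called at 1.48 (0.28 to 1.96). Gli1 had no call without COR plate 2 or as a mean over cells, and Sufu none without GP plate 2.

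Feedback and growth factor lists had more members called higher in GP than in COR, beside backgrounds of 7.09% and 6.33%. Of 14 FGF ligands, receptors and feedback genes 5 were called higher in GP and 0 in COR, led by Spry1, an inhibitor of receptor tyrosine kinase signals, at -3.96 (-4.86 to -3.76). All plate ratios were below 0 for 6 of the 14 and above 0 for 3, beside backgrounds of 17.9% and 19.1%, and the count above 0 is near its background. The summed level of the FGF list was higher in COR, at 931 CPM against 785 CPM in GP. Of 12 TGF-beta genes 4 were called higher in GP and 0 in COR, with Tgfb2, Inhba, Ltbp1 and Tgfb3 between -1.55 and -1.02. Retinoic acid genes had 7 of 15 members called higher in GP and 1 in COR, with a median of -1.06. The binding protein genes Crabp1, Rbp4 and Crabp2 had ratios of -3.25 (-3.84 to -1.79), -2.14 (-3.53 to -1.34) and -1.55 (-4.32 to -1.01), whereas the receptor gene Rxra was higher in COR at 1.8 (1.35 to 2.57). With the richest cell of each gene and plate left out, 3 retinoic acid genes were called higher in GP and the list median was 0.13. Of 9 Notch genes 3 were called higher in GP, with Jag1 at -1.58 (-6.05 to -1.08), and 1 in COR.

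Imprinted growth genes, which are high in newborn tissue and fall with age, had 10 of 14 members with all plate ratios below 0 and none with all above, beside backgrounds of 17.9% and 19.1%. Of these, 3 passed 2-fold. Mest was at 418 and 635 CPM in COR and 4014 and 3167 CPM in GP, read in 51 and 62 cells, a ratio of -2.43 (-3.26 to -2.32). Dlk1, a membrane-bound Notch relative, was at 0.309 and 0.868 CPM and 44.1 and 18.7 CPM in 5 and 31 cells, and the noncoding RNA Rian of the same cluster had a ratio of -2.09 (-4.01 to -1.74). The list median was -0.54.

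Immediate early genes, which respond within minutes to growth factors and to tissue dissociation, were called higher in GP for 8 of 20 members and in COR for Egr3, with a median of -1.23. Egr1 was at 42.9 and 61.9 CPM in COR and 79.3 and 239.6 CPM in GP, and Dusp1 at 39.2 and 72.8 and 222 and 220.2 CPM. Without the richest cell of each gene and plate 4 were called higher in GP, and without GP plate 2 the list median was -0.20. Handling of the 2 tissues cannot be told apart from tissue here.

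Receptors and markers that are used to place skeletal progenitors were called in both directions. Of 18 skeletal and suture stem cell markers at 10 CPM, 3 were called higher in COR (Six2, Gli1 and the collagen receptor gene Ddr2, at 1.1 (0.50 to 1.31)) and 3 in GP (Acta2, the integrin gene Itga6, at -2.24 (-6.76 to -1.98), and Grem1). Acta2 was read in fewer GP than COR cells, 15 against 29, and 1 cell gave most of its GP reads, as given below. Grem1, a secreted BMP antagonist, was at 0 and 0 CPM on the COR plates and 97.4 and 14.2 CPM on the GP plates. Of 25 integrin and laminin subunits 6 were called higher in GP, led by Itga4 at -3.74 (-4.05 to -3.67), and 0 in COR. Among 7 articular and synovial genes 3 were called higher in GP, namely Abi3bp, Prg4 (lubricin, -4.13 (-4.87 to -4.03)) and Gdf5, a joint-forming ligand (-2.88 (-5.27 to -2.67)), and 0 in COR.

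Other classes had few calls or calls in both directions, beside backgrounds of 6.33% in COR and 7.09% in GP. IGF genes had 3 binding proteins higher in GP (Igfbp3, Igfbp6 and Igfbp7, ratios -1.48, -1.23 and -1.68) and 1, Igfbp2, in COR among 10. Of 13 ephrins and Eph receptors 3 were called higher in GP and 0 in COR, and of 28 guidance genes (semaphorins, slits, netrins and receptors) 3 in COR and 2 in GP. Of 144 solute carrier genes 16 were called higher in COR and 8 in GP, with Slc37a4, the glucose 6-phosphate carrier of the endoplasmic reticulum, at 11.7 and 3.26 CPM in COR and 46.4 and 45.1 CPM in GP. Among 16 potassium channel genes 2 were called higher in COR, Kcnn4 being the one described above, and 4 in GP. Rgs2, which shortens G-protein signals, and Scube2, a secreted protein that releases hedgehog ligands, were among the 15 largest ratios on the GP side. Rgs2 was at 0 and 0.174 CPM in COR and 138 and 45.8 CPM in GP, and Scube2 at 0 and 0.764 CPM and 46.1 and 47.6 CPM.

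Housekeeping classes carried no call. Of 69 cytoplasmic ribosomal protein genes, 74 respiratory chain genes, 20 glycolysis and hypoxia genes and 24 secretory genes of the endoplasmic reticulum that reached 10 CPM, 0 were called in either direction, with medians of 0.05, 0.14, -0.11 and 0.04. All plate ratios were above 0 for 21 of the ribosomal and 19 of the respiratory chain genes and below 0 for 2 and 6, at differences under 2-fold. The backgrounds for these counts are 19.1% above 0 and 17.9% below. Among 28 cell cycle genes 4 were called higher in COR, Mki67 at 1.68 (1.14 to 2.08) among them, and 2 in GP, with Cdk1 at -1.01 (-1.91 to -0.21). These genes were read in few cells, Mki67 in 12 of COR and 6 of GP.

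Markers of other cell types were measured beside these classes. Of 15 smooth muscle and pericyte genes at 10 CPM 8 were called higher in GP and 0 in COR with a median of -1.92, and 1 GP cell gave 47.3% of the list's GP reads. Acta2 itself was at 432 CPM in 29 COR cells and 1633 CPM in 15 GP cells, 69.3% of the latter from 1 cell. Without the richest cell of each gene and plate 2 genes were called and the median was -0.09. Summed over their lists, endothelial genes ran from 12.7 to 32.6 CPM on the COR plates and from 32.9 to 54.4 CPM on the GP plates, and haematopoietic genes were at 5.4 and 20.7 CPM per tissue. Skeletal muscle genes summed to 9.46 and 9.9 CPM and erythroid genes to 10.8 and 0.562 CPM, with no member of either at 10 CPM.

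Of 8 neural and glial genes at 10 CPM, the glial Sox10, Erbb3 and Mbp were each read in at most 11.5% of the cells of a tissue, while Ncam1 was read in 81.1% of COR and 59% of GP cells at a ratio of 0.19. With Sox10 at 4.15 CPM in COR and 24.7 CPM in GP and Erbb3 at 0 and 24.1 CPM, 3 members including Mbp were called higher in GP. Meningeal genes summed to 537 CPM in COR and 149 CPM in GP, 37% of the former from 1 cell. By plate the sums were 102 and 586 CPM in COR and 203 and 137 CPM in GP, so that COR plate 1 lay below both GP plates, and 26 COR and 48 GP cells held a member. Igfbp2, called at 2.76 (0.074 to 2.94), was the only member higher in COR that passed, Crabp2 the only one in GP, and Slc47a1, Gjb6 and Gjb2 were read in at most 4 COR cells each and not called. What part these cells had in the differences above was not tested.

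Within cells, genes of the classes were read in different combinations. Tnmd and Ibsp rarely shared a GP cell, since 4 of 41 cells with a Tnmd read held Ibsp (9.76%) against 14 of 37 cells without (37.8%). Plate 1 gave 0 of 12 against 2 of 8 and plate 2 gave 4 of 29 against 12 of 29. The GP cells with Tnmd had a median of 375050 reads and those without 296151. Among COR cells, 4 of 15 with Tnmd and 15 of 59 without held Ibsp. Pitx1 was read in 28 of the 41 GP cells with Tnmd and in 11 of the 37 without, and in 6 of 18 GP cells with Ibsp. After thinning to 100000 reads, which left 67 GP cells, Ibsp was in 3 of 39 cells with Tnmd and 9 of 28 without.

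**Figure D4:**
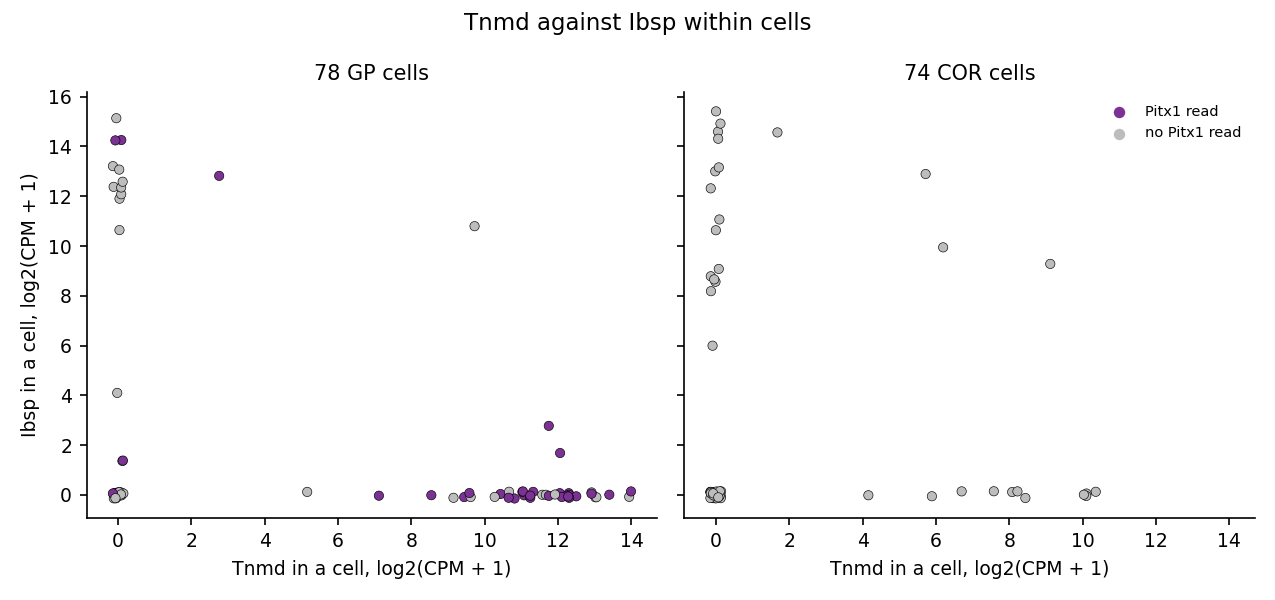
Tnmd against Ibsp in each GP cell (left) and COR cell (right), as log2(CPM + 1) with a small random shift, purple where Pitx1 was read. Most GP cells with Tnmd lie along the lower edge without Ibsp, 28 of the 41 carry Pitx1, and no COR cell does.

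The COR classes overlapped within cells in another way. Ibsp was read in 12 of 27 COR cells with Col13a1 and in 7 of 47 without. On plate 1, where 9 of 16 cells held Ibsp, the counts were 6 of 10 and 3 of 6, and on plate 2, where 10 of 58 did, 6 of 17 and 4 of 41, so that the difference lay mainly on plate 2. Sp7 was read in 16 of 19 COR cells with Ibsp and in 28 of 55 without, so most COR cells with Sp7 held no Ibsp read. In GP the counts were 8 of 18 and 10 of 60. Six2 was in 16 of 32 COR cells with Msx1 and 9 of 42 without. Cells with Alx1 or Dpt seldom held Ibsp, 1 of 17 in each case, against 18 of 57 without. Most of these cells were on plate 2, which held less Ibsp. There 0 of 14 cells with Alx1 held Ibsp against 10 of 44 without, and 1 of 15 with Dpt against 9 of 43, while plate 1 gave 1 of 3 against 8 of 13 and 0 of 2 against 9 of 14. None of the 14 COR cells with Shisa3, 13 of them on plate 2, held Ibsp. In GP, Scx was in 20 of 41 cells with Tnmd and 8 of 37 without, Col2a1 in 10 and 11, and Tnmd in 20 of 29 cells with Comp.

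Over the 152 cells, the genes most like each marker by Pearson's r of log2(CPM + 1) among 7082 genes read in at least 15% of cells were as follows. Like Col13a1 were Ifitm5 (r = 0.54), Dapk2 (0.53), Gpr133 (0.51), Panx3 (0.48) and Aldh1l2 (0.44), all called higher in COR. Kcnn4 was most like Lgals3 (0.52), Tppp3 (0.47), Cdh13, Bok and Plaur, and Ankrd6 most like Smpd3 (0.40), Mthfd2, Hars, Cercam and Vps33b. On the GP side, Comp was most like Abi3bp (0.48), Spon2, Cpxm2, Igfbp7 and Fbn2, and Pitx1 most like Fbn2 (0.51), Hoxc10 (0.48), 1500015O10Rik, Abi3bp and Tnmd (0.46). Cells share plate and depth, and a difference between the tissues alone raises these values.

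Placed by 15 principal components of 2000 variable genes, a COR cell drew 78.6% of its 20 nearest neighbours from COR, where cell numbers alone give 48.3%. For a GP cell the share was 65.6% beside 51%. By plate the shares were 84.7% and 76.9% in COR and 73.8% and 62.8% in GP. They were 78.7% and 65.8% with each cell thinned to 100000 reads, and 78.6% and 65.3% with the hindlimb, Hox and cranial genes left out. Those genes are few beside the 2000 variable genes, and plate and tissue cannot be told apart in these shares.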

How the data were processed

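Single cells were prepared after the SMART-seq2 protocol with oligo-dT priming and full-length libraries without molecular identifiers. The authors deposited raw read counts per gene in 8 tables, 1 per tissue and plate, and the submitters' processing notes name STAR 2.5.3a, HTSeq, Seurat 2.3.0, R 3.4.4 and build mm9 (NCBIM37), with no role given. Use of strand is not given in the sources used here. All 360 columns matched a record, and 0 were left out. Groups came from the records' source names and plates.

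The cell minimum counted all reads, Rn45s included, and CPM left Rn45s out. The members, lists and rules were chosen with earlier results of these data known. Named genes are the called genes with the 15 largest ratios in each direction among those broadly read, up to 4 more per list by the same rule, the markers, the sort gate genes and a few landmark genes. List members outside this rule that are named (such as Col1a1, Twist1 or Mkx) were picked after their values were seen, as were the pairs of genes counted within cells. Some members of the lists are not reported here by name. No test was run, since each tissue is 1 sample. Intervals are exact Poisson (levels) and exact Clopper-Pearson (shares) at 95%. Reads are PCR copies, so intervals and the floor of 3 counts cover counting error only. No doublet caller was run on the singly sorted cells, and 0 of them read both Xist and a gene of the Y chromosome. Python 3.11.15, scikit-learn 1.9.0 and, for TMM factors, edgeR 4.0.16 were used, and the scripts were tested on simulated data. Gene locations are from GENCODE vM1 on NCBIM37. Alternatives were Rn45s in the totals, TMM, means over cells, thinning, other cell and gene filters, other pseudocounts, the richest cell left out, and each plate left out.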

Additional observations from a re-analysis of the deposited data

How the results depend on the processing

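Over 17 alternatives the 125 named genes that were called had between 110 and 125 calls kept, and 0 turned to the other tissue. Without COR plate 2, 15 were lost (Adamts12, Adamts5, Ank, Cdk1, Ddr2, Duoxa1, Eng, Gli1, Id1, Igfbp2, Kcnma1, Loxl3, Msx1, Sox6 and Sox9), without GP plate 2, 9 (Acan, Col25a1, Egr1, Fst, Gdf10, Irx5, Runx3, Sox11 and Sufu), and with the richest cell of each gene and plate left out, 13 (Duoxa1, Egr1, Eng, Fzd6, Id1, Igfbp2, Il33, Shisa3, Slc16a10, Sox11, Sox6, Sox9 and Tgfb3). Leaving out a plate leaves 2 ratios in place of 4, so more genes pass by construction, with 895 to 1684 genes called higher in COR and 828 to 1802 in GP. With the richest cell of each gene and plate left out, 437 genes were called higher in GP (669 otherwise) and 593 in COR (597). With Rn45s in the totals the counts were 619 in COR and 483 in GP, and with TMM 547 and 705. As means over cells they were 709 and 922, of which 417 and 571 were among the calls above, and after thinning 726 and 829, of which 449 and 554 were. With a gene filter of 1 CPM, or none, they were 872 and 978, with a pseudocount of 5 CPM 465 and 547, and with Rn45s left out of the cell filter, an alternative chosen after seeing the data, 596 and 670.

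List medians by plate left out ran from -5.43 to -4.47 for the hindlimb, 1.63 to 3.95 for the cranial, 0.83 to 1.26 for the Msx, Dlx, Twist and Runx, 0.70 to 1.06 for the osteoblast, -4.21 to -0.66 for the chondrocyte, -3.69 to -1.79 for the tendon, -3.16 to -1.62 for the smooth muscle, -2.17 to -0.20 for the immediate early, -1.04 to -0.48 for the collagen, -1.67 to -0.59 for the proteoglycan, -1.41 to -0.25 for the elastic fibre, -1.42 to -0.40 for the imprinted, -1.53 to -0.81 for the retinoic acid, 0.054 to 0.25 for the Wnt receptor, 0.049 to 0.12 for the ribosomal, 0.027 to 0.17 for the respiratory chain, -0.31 to 0.14 for the glycolysis and 0.024 to 0.19 for the secretory list. In each list the value farthest from the full median came without COR plate 2 or without GP plate 2, the larger plates. The hindlimb median was -2.58 with a pseudocount of 5 CPM and -7.96 with 0.1 CPM, since its COR values are 0. With the richest cell left out the medians were 1.26 for the Msx, Dlx, Twist and Runx factors, -0.094 for smooth muscle, 0.13 for retinoic acid (a change of sign), 0.094 for ribosomal and 0.17 for secretory genes. Retinoic acid genes had -0.51 after thinning, -0.51 with the 1 CPM filter and -0.34 with no gene filter. Some lists near 0 changed sign or moved without a change of sign under another scaling. The Wnt receptor median was -0.083 with TMM and -0.057 as a mean over cells, the ribosomal one -0.013, -0.11 and, with Rn45s counted, 0.14, the secretory one -0.030 with TMM, and the respiratory chain one 0.015 as a mean over cells. As a mean over cells 2 named genes changed sign, Irx5 at -0.035 and Slc17a9 at -0.72. With 10 neighbours in place of 20 the COR share was 87.6% and the GP share 70%. The cause of each move was not tested.

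No mixed well was found, so leaving them out changed nothing. No paired analysis was possible because plate numbers name plates of different tissues and no test was run. COR plate 1 holds 3237921 reads of 16 cells and GP plate 1 4940545 of 20, which limits what a ratio with either can show for genes read in few cells.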

Other observations

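The other sutures were not part of the comparison, but their levels of the same genes can be set beside it. They cover 34 and 53 cells of the posterior frontal suture (PF, plates 1 and 2) and 30 cells of sagittal suture plate 1 (SAG). Sagittal plate 2 was left out because most of its reads were of Rn45s. The hindlimb genes Pitx1, Hoxa9, Hoxa10, Hoxa11 and Hoxc10 were at 0 on all 3 of these plates. Tbx4 was at 1.18 CPM on PF plate 1 and 0 elsewhere. Alx1 was at 25.2 and 63.6 CPM in PF and 69.7 CPM in SAG, Six2 at 26, 28.8 and 39.1 CPM, and Msx1 at 32.6, 29.7 and 40.3 CPM.

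Some genes that were high in the coronal suture were at 0 in the others. Efemp1, Dpt and Duoxa1 had no read on the 3 plates. Shisa3 was at 219.6 and 143 CPM in PF and 0 in SAG, and Il33 at 96.7 and 168 CPM and 0. Of the markers, Ankrd6 was at 8.45, 27.4 and 8.15 CPM, Kcnn4 at 0, 6.52 and 23.4 CPM and Col13a1 at 73.5, 92.3 and 55.9 CPM.

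Several genes that were high in the growth plate were also read in these sutures. Fbn2 was at 136 and 174 CPM in PF and 10.6 CPM in SAG, Col8a1 at 1039, 564 and 74.1 CPM, and Tnmd at 311, 315 and 77.7 CPM. Comp was at 8.79 and 2.58 CPM in PF and 726 CPM in SAG, and Thbs4 and Kera were at 0 on all 3 plates. Col2a1 was at 1.18 and 58.7 CPM in PF and 9413 CPM in SAG, where 73.3% of cells held it. The GP level of Col2a1 was lower than that of SAG, at 2349 CPM in 26.9% of cells, so Col2a1 does not set the growth plate apart from every suture. These are levels side by side, with no test.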
